A study of Caenorhabditis elegans with 6 samples.

Results

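The loci described here are the long intergenic noncoding RNA (lincRNA) genes of Caenorhabditis elegans that carried 22G-RNAs in gravid adults of lotr-1 mutants and of wild-type animals. They were selected by 2 criteria, a lincRNA or lncRNA biotype in the Ensembl annotation of the WBcel235 genome and a count above 0 in at least 3 of the 6 libraries. These criteria kept 81 of the 181 lincRNA loci in the count files, which hold 22336 loci in all. The second criterion uses the counts themselves, so being detected is a property of the choice and not a finding. The mutant libraries came from 3 alleles of lotr-1, xf58, xf60 and xf61, each an outcrossed strain with a CRISPR/Cas9 deletion in the gene (in frame in xf58) and 1 library, and the study used them as triplicates. The wild-type libraries were 3 replicates of strain N2. All animals were synchronized as arrested larvae, fed OP50 bacteria and harvested whole as gravid adults 63 hours after plating. RNA was enriched for small RNAs and treated with RppH, an enzyme that makes 5′ triphosphorylated small RNAs open to adapter ligation. The comparison asks which lincRNA loci gain or lose 22G-RNAs when LOTR-1, a germ granule protein with LOTUS and Tudor domains, is mutated. Whole worms were used, so fewer germ cells and fewer 22G-RNAs per germ cell cannot be told apart.

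LincRNAs are transcripts that look like messenger RNAs in being spliced and polyadenylated but have no long open reading frame, and most of those in C. elegans are known by a linc- number with no assigned function. 22G-RNAs are secondary small interfering RNAs that begin with guanosine. RNA-dependent RNA polymerases make them on a target transcript, in germ cells mostly in perinuclear granules, and worm-specific Argonautes (WAGOs) and CSR-1 bind them. Some 22G-RNAs mark transcripts for silencing and others mark expressed transcripts, so a 22G-RNA count at a lincRNA locus does not measure the lincRNA itself. It shows that the lincRNA serves as a template only where the reads come from that locus alone. Here a 22G-RNA is a read of 22 bases with a G at its 5′ end that lies antisense to an exon.

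Library totals lay between 3706296 and 4520488 22G-RNA counts, and mutant and wild-type totals overlapped. The scaling factors of the libraries did not overlap. TMM factors, which make the typical locus equal between libraries, were 0.843, 0.657 and 0.706 in xf58, xf60 and xf61, against 1.36, 1.36 and 1.39 in wild-type. Directions of small changes therefore turn on the scaling, and values with total counts are given beside several of them. The lotr-1 locus itself had 88, 20 and 47 22G-RNA counts in xf58, xf60 and xf61, against 245, 293 and 275 counts in wild-type (log2 fold change −1.48 ± 0.40 SE, adjusted p = 0.0184 by edgeR's quasi-likelihood test). These are small RNAs on the lotr-1 transcript and not a test of the deletions. Where no other unit is given, values below are normalized counts, the count divided by the effective library size (total × TMM factor) and multiplied by the mean effective size.

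Of the 81 lincRNA loci, 71 carry a linc- name and 10 do not. Their exons add up to between 120 and 4071 bases, with a median of 464 bases, and 18 have a single exon. The span of 62 of them touches no protein-coding gene. The median distance to the nearest protein-coding gene was 715 bp. Counts were recorded in all 6 libraries at 63 loci, in 5 at 9, in 4 at 6 and in exactly 3 at 3. Just inside the criterion, linc-142 had 2, 0 and 1 counts in xf58, xf60 and xf61, against 0, 1 and 0 counts in wild-type. Another of these loci, linc-84, had 0 counts in every mutant library, against 1, 2 and 2 counts in wild-type. It was the only locus kept through the libraries of 1 group. Just outside the criterion, Y39A3B.3 had 0 counts in every mutant library, against 1, 1 and 0 in wild-type, and linc-60 had 0, 0 and 0 in the mutants, against 2, 0 and 2 in wild-type. The 100 lincRNA loci outside the criterion had at most 5 counts each over all 6 libraries. A pair of loci without a linc- name, F40H3.6 and Y9D1A.1, are lincRNA genes in the annotation used here but were listed as protein-coding in the study's gene table.

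Taken as a group, lincRNA loci received 92617, 89829 and 100895 22G-RNA counts in xf58, xf60 and xf61, against 147100, 159422 and 128170 counts in wild-type. As a share of all 22G-RNA counts this was 2.50%, 2.19% and 2.34% in the 3 alleles, against 3.52%, 3.53% and 3.38% in wild-type. The mean was 2.34% ± 0.155 in the mutants and 3.48% ± 0.0818 in wild-type (SD, n = 3 each), and every mutant library lay below every wild-type library. Measured per effective library size, which discounts loci that take up a large part of a library, the order was the other way round. The share was then 3.22% ± 0.206 in the mutants and 2.56% ± 0.0899 in wild-type (SD, n = 3 each). LincRNA loci as a group thus lost share of all 22G-RNAs in lotr-1 mutants but stood higher relative to the typical locus, and which of these is read as a change depends on the scaling. No test was run on the sum, since it is a score over chosen loci.

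**Figure D1:**
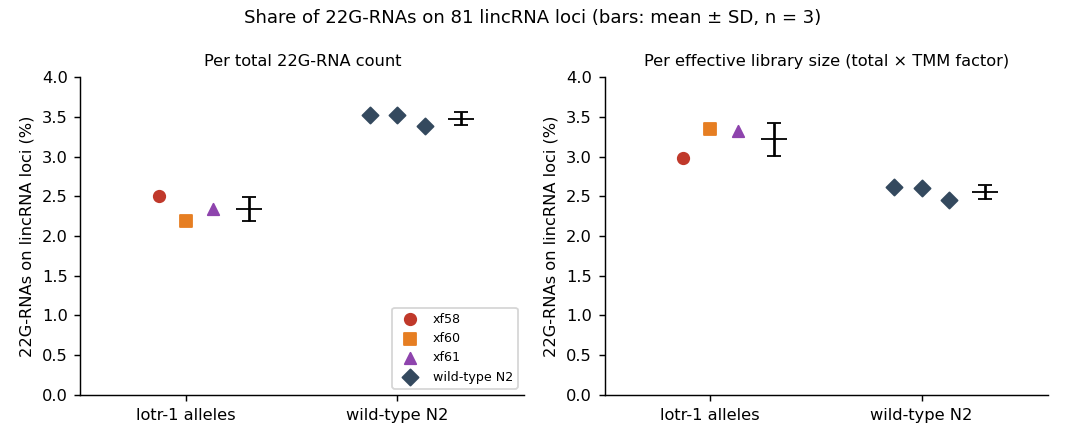
Share of 22G-RNAs on the 81 lincRNA loci in each library, in percent of total counts (left panel) and in percent of the effective library size (right panel). Symbols are single libraries of the lotr-1 alleles and of wild-type N2, and bars give the mean ± SD. The mutants lie below wild-type on the left (2.34% and 3.48%) and above it on the right (3.22% and 2.56%).

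A pair of loci held most of this sum. Linc-29 (IV:6354024-6357243, plus strand, 3 exons) alone held 41.1% of the normalized lincRNA counts in the mutants and 32.6% in wild-type. Together with linc-22 (X:9069138-9073735, plus strand, 5 exons) it held 66.7% in the mutants and 63.3% in wild-type. The 8 loci with the highest wild-type counts (linc-29, linc-22, linc-7, linc-63, linc-8, linc-11, linc-16 and F39E9.10) held 91.2% in the mutants and 89.7% in wild-type. Without linc-29 and linc-22, lincRNA loci had 0.780% of total counts in the mutants and 1.28% in wild-type, or 1.07% and 0.939% of the effective library size in mutants and wild-type, so both directions held without them.

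Linc-29 had 55161, 59427 and 55870 normalized counts in xf58, xf60 and xf61, against 36314, 36630 and 34550 in wild-type. The groups did not overlap, but the change was under 2-fold (log2 fold change 0.67 ± 0.11 SE, adjusted p = 0.00259), and scaled by total counts the sign turned to −0.23 (adjusted p = 0.0373). Linc-22 had 30279, 37477 and 38581 normalized counts in xf58, xf60 and xf61, against 35944, 34901 and 30422 in wild-type. Its groups overlapped (log2 fold change 0.07 ± 0.15 SE, adjusted p = 0.709), and with total counts its value was −0.84 (adjusted p = 0.00029). Per kilobase of exon, linc-29 had 90333 normalized counts in the mutants and 56966 in wild-type, whereas linc-22, a longer gene, had 8707 in the mutants and 8292 in wild-type. Linc-29 was thus the most densely covered lincRNA in both groups. The gap between the 2 loci was wider in the mutants, and this comparison within libraries does not depend on the scaling.

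Among the other abundant loci, linc-63 (I:3870642-3871267) had 8520, 7360 and 8598 normalized counts in the alleles, against 5611, 5586 and 5482 in wild-type. Its log2 fold change of 0.55 ± 0.12 SE (adjusted p = 0.00857) stayed under 2-fold and was −0.33 with total counts. Linc-7 averaged 6632 ± 412 normalized counts in the mutants and 6331 ± 484 in wild-type (SD, n = 3 each), with overlapping groups (log2 fold change 0.07, adjusted p = 0.682), and with total counts its value was −0.82 (adjusted p = 0.00286). Linc-8 averaged 4020 ± 739 normalized counts in the mutants and 4824 ± 316 in wild-type, and F39E9.10 averaged 3385 ± 580 in the mutants and 3770 ± 97.5 in wild-type (SD, n = 3 each). Both of these also overlapped between groups (adjusted p = 0.222 for linc-8 and 0.444 for F39E9.10), and with total counts both were called lower, at −1.17 and −1.07.

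Only 52 of the 81 loci had enough counts to be tested, and the other 29 had at most 60 counts over the 6 libraries. A locus was called up- or down-regulated at a Benjamini-Hochberg adjusted p under 0.1 over all 9285 tested loci and a change of more than 2-fold. Of the 52, 11 were up-regulated and 11 were down-regulated, or 21.2% each way. Over all tested loci 18.8% were up-regulated and 17.6% were down-regulated, so the lincRNA shares were near the background. Scaled by total counts, 5 lincRNA loci were up-regulated and 20 down-regulated, with 8.68% up and 44.7% down over all tested loci. At 6 of the 52, 10 counts or more were reached in the libraries of 1 group only (linc-74 in the mutants; F40H3.6, Y9D1A.1, linc-44, linc-54 and linc-61 in wild-type), and such loci enter the test only through that group. All 6 were called, and without them 10 of 46 loci were up-regulated and 6 down-regulated. The same exclusion was not made over all tested loci, so these counts have no matched background. The 46 are not free of such loci, since the filter asks for about 10 counts in 3 libraries. Linc-90 and F31A9.2 reached this only through the mutants and linc-32 only through wild-type, and all of these were called. Y48C3A.1, linc-86 and linc-106 also reached it only through wild-type and were not called. The 3 mutant libraries all lay above the 3 wild-type libraries at 22 of the 52 loci, where 29.7% of all tested loci did so, and all lay below them at 14, where 32.2% of all tested loci did so. Scaled by total counts the balance was the other way, with 7 loci above and 32 below, where all tested loci had 12.2% and 65.5%. All 22 called lincRNA loci had groups that did not overlap, which the call itself makes likely with 3 libraries per group. Scaled by total counts this held for 7 of the 11 up-regulated and for all 11 down-regulated loci.

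Another 14 loci passed the adjusted p of 0.1 with a change of 2-fold or less, 12 of them higher and 2 lower. The share of all tested loci that did so was not computed, so these counts have no background. The higher ones include linc-29 and linc-63, and none of the 12 had all mutant libraries above wild-type when libraries were scaled by total counts. The median log2 fold change of the 52 loci was 0.34, with quartiles at −0.61 and 0.76, against a median of 0.01 over all tested loci. With total counts these medians were −0.58 and −0.88, so that lincRNA loci lay 0.30 above the median of all loci, against 0.32 with TMM. This distance was smaller without xf58 (0.17), without xf60 (0.18), without xf61 (0.14) and without a count filter (0.16). Pseudogenes had a median log2 fold change of 0.43 (523 tested), protein-coding genes of −0.03 (8550 tested) and transposon families of 1.06 (135 tested). These classes are given as a description, and no difference between classes was tested.

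**Figure D2:**
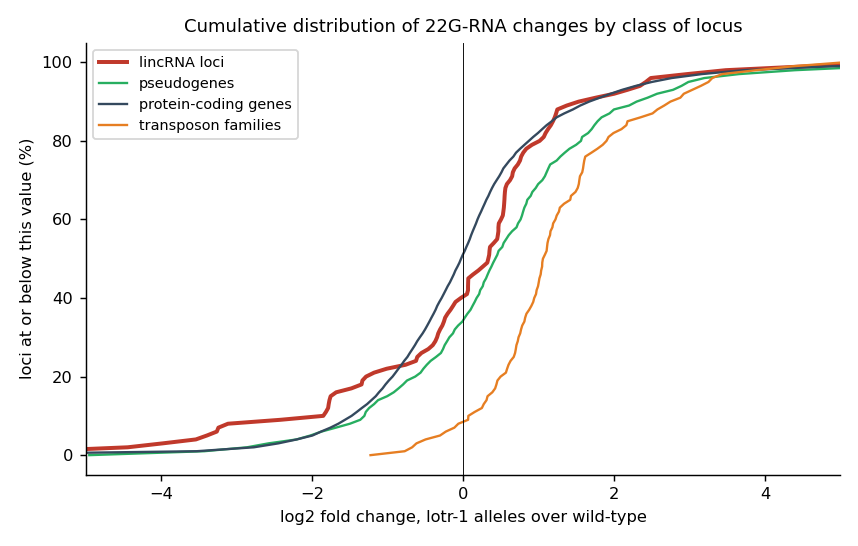
Cumulative distribution of the log2 fold change in 22G-RNAs, lotr-1 alleles over wild-type, for lincRNA loci (52), pseudogenes (523), protein-coding genes (8550) and transposon families (135); the vertical axis is the percent of loci at or below each value. The lincRNA curve reaches its median at 0.34 and runs from −6.94 to 5.66, beyond both ends of the horizontal axis.

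The up-regulated loci were mostly scarce in wild-type. Linc-81 (V:19895684-19897795, minus strand) changed most. It had 360, 1106 and 676 normalized counts in xf58, xf60 and xf61, against 11.5, 14.0 and 16.5 in wild-type (log2 fold change 5.66 ± 0.47 SE, adjusted p = 0.000111). Every allele stood far above the highest wild-type library, with xf60 highest (log2 change 6.11), xf61 next (5.40) and xf58 lowest. In raw counts this was 260, 690 and 477 in the alleles, against 15, 20 and 20 in wild-type, so the gain does not rest on the scaling. Linc-74 (II:14218808-14220379, plus strand) had 16, 26 and 19 raw counts in the alleles, against 1, 6 and 3 in wild-type (log2 fold change 3.50 ± 0.48 SE, adjusted p = 0.000985). Linc-90 (III:352222-355402, plus strand) had 24.9, 46.5 and 42.5 normalized counts in the alleles, against 4.59, 7.02 and 8.23 in wild-type (log2 fold change 2.49 ± 0.34 SE, adjusted p = 0.000995). At both loci the lowest allele was xf58 and still lay above every wild-type library. Linc-74 and linc-90 entered the test only through the mutants, so their adjusted p values are not independent support.

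Linc-75 and F31A9.2 are neighbours on the plus strand of chromosome X, with 2242 bp between them, and both were up-regulated. Linc-75 (X:1791722-1792573) had 112, 104 and 113 normalized counts in xf58, xf60 and xf61, against 24.5, 21.1 and 18.1 in wild-type (log2 fold change 2.36 ± 0.17 SE, adjusted p = 5.7e-05). Its values were the closest together over the alleles of the 11 up-regulated loci. F31A9.2 (X:1794816-1795673) had 33.2, 24.0 and 39.7 normalized counts in the alleles, against 10.7, 9.83 and 2.47 in wild-type (log2 fold change 2.04 ± 0.43 SE, adjusted p = 0.00697). This locus entered the test only through the mutants. Linc-31 (V:8152035-8154464) had 67.8, 75.3 and 46.7 in the alleles, against 18.4, 23.9 and 21.4 in wild-type (log2 fold change 1.56 ± 0.23 SE, adjusted p = 0.00146). With total counts linc-81, linc-74, linc-90, linc-75 and F31A9.2 were the 5 lincRNA loci still called up-regulated, and linc-31 moved under 2-fold (0.67, adjusted p = 0.0467).

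The other 5 up-regulated loci lay close to 2-fold, with log2 fold changes of 1.06 to 1.25, and all 5 lost the call with total counts while keeping their sign. Linc-11 (II:3373169-3374185) was the only abundant one. It had 8930, 10957 and 10414 normalized counts in xf58, xf60 and xf61, against 4591, 4602 and 4914 in wild-type (log2 fold change 1.10 ± 0.13 SE, adjusted p = 0.000529). Its raw counts were 6458, 6838 and 7353 in the alleles, against 6004, 6555 and 5968 in wild-type. Relative to total counts the mutants still lay above wild-type, but by only 0.19 on the log2 scale (adjusted p = 0.068), and without a count filter its change was 0.96, under 2-fold. Linc-20 had 264, 167 and 184 normalized counts in the alleles, against 90.2, 87.1 and 80.7 in wild-type, and changed by 1.25 ± 0.20 SE on the log2 scale (adjusted p = 0.00206).

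The last 3 up-regulated loci depended on single libraries. Linc-9 had 239, 152 and 154 normalized counts in the alleles, against 97.9, 89.9 and 74.9 in wild-type (log2 fold change 1.06 ± 0.22 SE, adjusted p = 0.0067). It went under 2-fold without xf58 (0.80), without wild-type replicate 3 (0.95) or without a count filter (0.91). Linc-10 (II:3313083-3313507) changed by 1.22 ± 0.30 SE (adjusted p = 0.0127) and by 0.98 without xf61. All of its 232 exon bases lie within exons of F39E9.6 on the same strand, so reads of the 2 genes cannot be told apart. Lep-5, the lincRNA among these with a known role, acts in the timing of the juvenile-to-adult transition of C. elegans, where it opposes LIN-28. It had 13, 10 and 9 raw counts in the alleles, against 16, 8 and 3 in wild-type (log2 fold change 1.18 ± 0.51 SE, adjusted p = 0.0912). Its raw counts overlapped between groups, and its adjusted p ran between 0.105 and 0.225 when wild-type replicate 2, wild-type replicate 3, xf58, xf60 or xf61 was left out and was 0.143 without a count filter, so it is given as a borderline call.

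**Figure D3:**
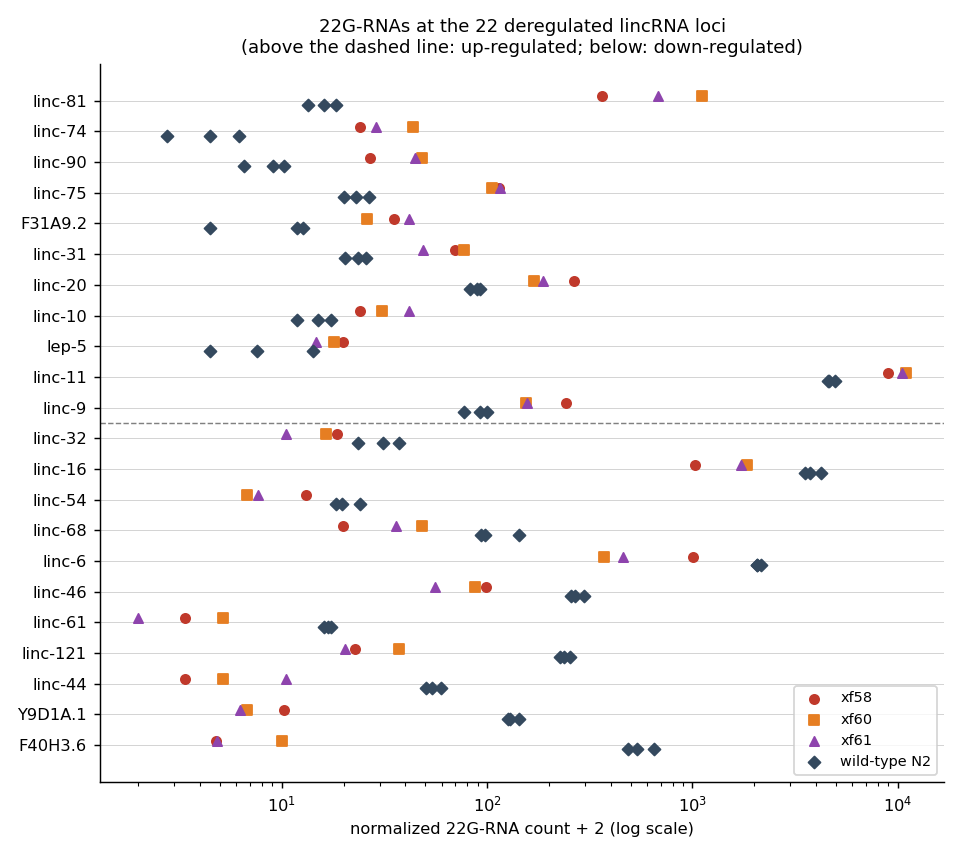
Normalized 22G-RNA counts plus 2 (horizontal, log scale) at the 11 up-regulated lincRNA loci (above the dashed line) and the 11 down-regulated ones (below it). Each row is a locus, with the alleles xf58, xf60 and xf61 as coloured symbols slightly above the 3 wild-type libraries (diamonds). The mutant symbols lie right of all wild-type ones in the upper 11 rows and left of them in the lower 11, from linc-81 at the top (360 to 1106 in mutants, 11.5 to 16.5 in wild-type) to F40H3.6 at the bottom (2.77 to 8.01 in mutants, 483 to 645 in wild-type).

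The down-regulated loci ranged from a near complete loss of 22G-RNAs to changes close to 2-fold. F40H3.6 (II:6186719-6187947, minus strand, 3 exons) changed most. It had 2, 5 and 2 raw counts in xf58, xf60 and xf61, against 632, 765 and 783 in wild-type. In normalized counts this was 4.54 ± 3.01 in the mutants and 555 ± 82.2 in wild-type (SD, n = 3 each; log2 fold change −6.94 ± 0.34 SE, adjusted p = 1.92e-05). Y9D1A.1 (II:7446672-7448544, plus strand, 12 exons) had 6, 3 and 3 raw counts in the alleles, against 162, 182 and 172 in wild-type (log2 fold change −4.46 ± 0.24 SE, adjusted p = 2.42e-05). These 2 losses were close to complete in every allele, and both are at the loci that the study's table listed as protein-coding. Both loci entered the test only through wild-type, so their adjusted p values are not independent support. With so few mutant counts the exact sizes of the losses are uncertain.

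Linc-44 (II:5781921-5782113, minus strand, 1 exon) had 1, 2 and 6 raw counts in the alleles, against 75, 74 and 59 in wild-type (log2 fold change −3.55 ± 0.40 SE, adjusted p = 0.00039). Linc-121 (IV:14934821-14937128, minus strand) had 15, 22 and 13 raw counts in the alleles, against 308, 318 and 306 in wild-type (log2 fold change −3.26 ± 0.24 SE, adjusted p = 6.46e-05). Linc-61 (V:16043099-16043761, minus strand) had 1, 2 and 0 raw counts in the alleles, against 20, 21 and 17 in wild-type (log2 fold change −3.22 ± 0.55 SE, adjusted p = 0.00272). At each of these 3 loci the mutant libraries lay far below all wild-type libraries. A count of 0 in xf61 at linc-61 allows up to 3 counts. Linc-44 and linc-61 entered the test only through wild-type, so their adjusted p values are not independent support. Linc-46 (II:1990692-1991487) fell to 96.8, 84.9 and 53.8 normalized counts in the alleles, against 255, 293 and 266 in wild-type (log2 fold change −1.79 ± 0.22 SE, adjusted p = 0.000656). Linc-68 (II:3597516-3597914) fell to 13, 29 and 24 raw counts in the alleles, against 119, 136 and 171 in wild-type (log2 fold change −1.74 ± 0.33 SE, adjusted p = 0.00454).

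Abundant loci were also among those that fell. Linc-6 (X:1982710-1982883, minus strand, 1 exon), the second most densely covered lincRNA per kilobase in wild-type, had 1004, 370 and 457 normalized counts in xf58, xf60 and xf61, against 2151, 2049 and 2062 in wild-type (log2 fold change −1.77 ± 0.36 SE, adjusted p = 0.00606). The loss was −1.05 on the log2 scale in xf58 and larger in the other alleles, −2.49 in xf60 and −2.19 in xf61. Linc-16 (II:1820242-1820946, minus strand) had 1027, 1841 and 1717 normalized counts in the alleles, against 3532, 3721 and 4234 in wild-type (log2 fold change −1.33 ± 0.23 SE, adjusted p = 0.00312). Here xf58 was the lowest allele. Of its 568 exon bases, 496 lie within exons of fbxa-3 on the same strand, a gene that was itself down-regulated (−1.07), so the reads of linc-16 and fbxa-3 cannot be told apart. Linc-54 changed by −1.35 ± 0.35 SE (adjusted p = 0.0166), close to linc-16. The smallest loss was at linc-32 (−1.12 ± 0.32 SE, adjusted p = 0.0246). Linc-32 went under 2-fold without wild-type replicate 2 (−0.95) or without xf61 (−0.87). Both linc-54 and linc-32 entered the test only through wild-type.

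Among these loci, linc-121, linc-75 and linc-16 are marked as targets of ERGO-1 in the part of the study's gene table that was examined. ERGO-1 is an Argonaute that binds primary 26G-RNAs and sets off 22G-RNA production on its targets. Linc-121 is also marked as a target of NRDE-3, a nuclear Argonaute that binds 22G-RNAs. Other lincRNA loci may be marked in the rest of that table. The marked loci named here did not move together. Linc-75 was up-regulated (2.36) and linc-121 (−3.26) and linc-16 (−1.33) were down-regulated.

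**Figure D4:**
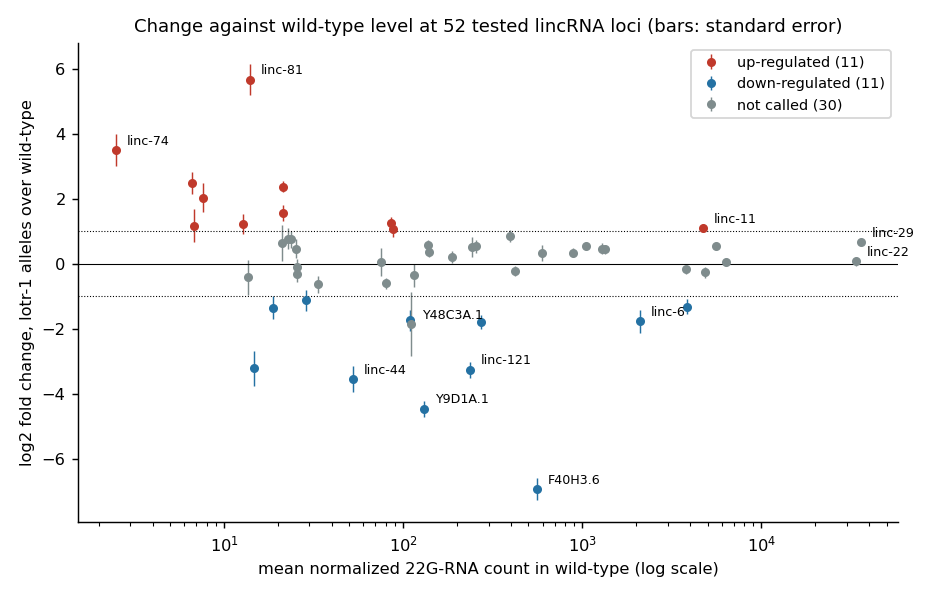
Log2 fold change, lotr-1 alleles over wild-type (vertical, with its standard error), against the mean normalized count in wild-type (horizontal, log scale) for the 52 tested lincRNA loci. Dotted lines mark a 2-fold change. Up-regulated loci lie mostly under 100 normalized counts in wild-type, with linc-11 (4702) as the one abundant exception, and down-regulated loci spread from linc-61 (14.7) to linc-16 (3829).

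Up-regulated loci had a median of 14.0 normalized counts in wild-type, down-regulated loci 131 and loci without a call 215. This order partly follows from the test, since a locus that is scarce in wild-type enters it more easily if it rises. Split by the mean over all 6 libraries, 7 of 24 loci under 100 normalized counts were up-regulated and 6 down-regulated. In the range of 100 to 500 normalized counts, 3 of 13 were up-regulated and 3 down-regulated, and at 500 or more 1 of 15 was up-regulated and 2 down-regulated. By chromosome, II had 14 tested loci, 3 up- and 6 down-regulated, and X had 12, 4 up- and 2 down-regulated. Chromosomes I, III, IV and V had 4, 8, 7 and 7 tested loci, of which 1, 1, 0 and 2 were up-regulated and 0, 0, 1 and 2 down-regulated. The 8 tested loci with a single exon included 3 down-regulated and 0 up-regulated ones, and the numbers are too small for more than a description. Over all tested loci 18.8% were up-regulated and 17.6% down-regulated. Shares of all loci within the same level, chromosome or exon number were not computed, so these splits have no matched background.

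Neighbouring lincRNA loci moved together in some places and apart in others. There were 4 pairs of adjacent lincRNA loci within 5000 bp of each other. Linc-75 and F31A9.2 both rose, as described. Linc-41 and linc-21, 320 bp apart on chromosome IV, changed by 0.55 and 0.45, and linc-19 and linc-45, 456 bp apart on chromosome III, by 0.54 and 0.47 on the log2 scale, all under 2-fold and all with their mutants below wild-type when scaled by total counts. Linc-17 and linc-68 lie 703 bp apart on the same strand of chromosome II and differed. Linc-17 had 480, 910 and 858 normalized counts in the alleles, against 588, 601 and 608 in wild-type (0.32 ± 0.25 SE, adjusted p = 0.305; all mutants below wild-type when scaled by total counts), while linc-68 was down-regulated (−1.74). These pairs share a position and can share reads where their sequences are alike, which was not tested.

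The nearest protein-coding gene had itself been tested for 12 of the 22 called lincRNA loci. It was called in the same direction in 7, in the opposite direction in 1 and not at all in 4, against the background of 18.8% up and 17.6% down. The 7 were linc-81 with fars-2 (2.63), linc-90 with gei-4 (2.93), linc-11 with bath-10 (1.74), linc-6 with F52D2.12 (−3.11), linc-121 with a gene 189 bp away (−3.24), linc-54 with M163.1 (−1.65) and linc-16 with fbxa-3 (−1.07), each with the log2 fold change of the coding gene. In 3 of the 7 both genes are on the same strand (linc-81, linc-54 and linc-16). Linc-16 shares 496 exon bases with fbxa-3, so this pair cannot be read as separate loci that moved alike. The opposite case was linc-44 (−3.55), whose neighbour K05F1.6, 407 bp away, was up-regulated (3.49). Beside the uncalled lincRNA loci, 17 neighbours were tested, 7 of them up-regulated and 1 down-regulated. The neighbours were looked up after the calls were known, and no test was made of how often they matched.

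The 3 alleles agreed in direction at most loci but not in size. All 3 lay on the same side of the wild-type mean at 40 of the 52 loci, above it at 22 and below it at 18, where all tested loci had 35.1% and 37.4%. With total counts they lay above it at 8 and below it at 35, where all tested loci had 14.4% and 70.9%. In xf58, 9 loci were more than 2-fold above the wild-type mean and 11 more than 2-fold below it, where all tested loci had 17.2% and 13.4%. In xf60, 11 were above and 13 below, where all tested loci had 18.8% and 22.7%. In xf61, 11 were above and 12 below, where all tested loci had 19.0% and 22.3%. These values set 1 library beside the wild-type mean, on a log2 scale with a prior count of 2, and they have no replicate check. Among the 22 called loci all 3 alleles passed 2-fold at 15, and the allele with the smallest change was xf58 at 10 loci, xf60 at 9 and xf61 at 3. For these 22 the median absolute log2 change of xf58 was 1.75, that of xf60 1.67 and that of xf61 2.15.

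No lincRNA locus moved by more than 2-fold one way in xf58 and the other way in both xf60 and xf61. At 6 loci xf58 lay on the other side of wild-type from xf60 and xf61 by a smaller margin. The clearest differences between alleles were at loci picked after their values were seen. Y48C3A.1 (II:13260894-13261201), with an exon length of 120 bases, had 63, 1 and 0 raw counts in xf58, xf60 and xf61, against 158, 152 and 127 in wild-type. On the log2 scale xf58 changed by −0.34, xf60 by −4.97 and xf61 by −5.82, and because of this spread it was not called over the 3 alleles (−1.86 ± 0.97 SE, adjusted p = 0.15). Linc-86 had 8.30, 35.3 and 56.7 normalized counts in the alleles, against 15.3, 28.1 and 19.8 in wild-type, and linc-77 had 124, 28.8 and 82.1 in the alleles, against 61.2, 85.0 and 80.7 in wild-type. At linc-77 the odd allele was xf60, not xf58. With 1 library per allele, an effect of the allele and the variation of a single library cannot be told apart.

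**Figure D5:**
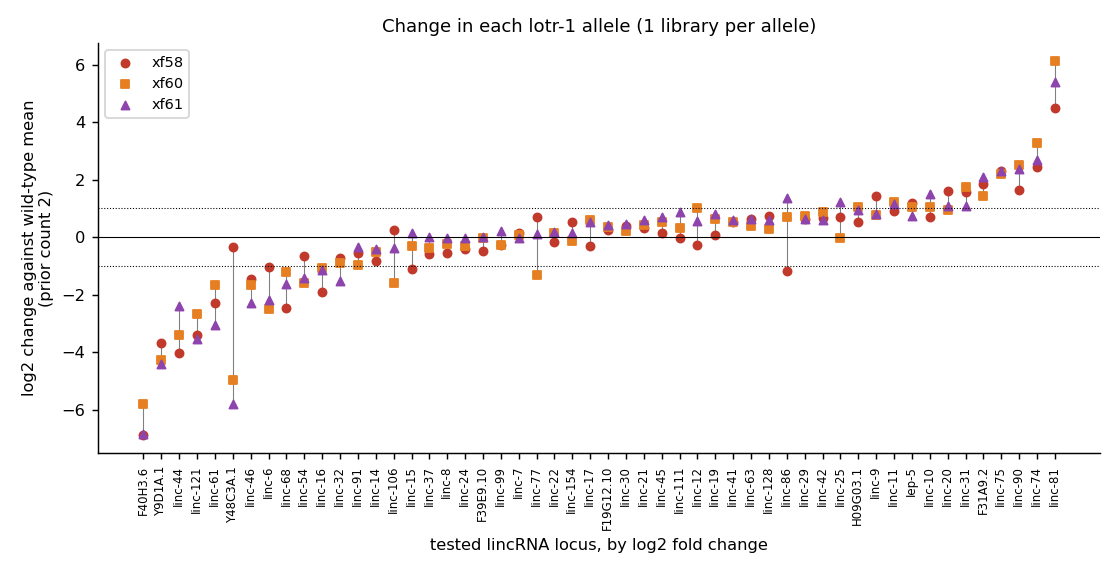
Log2 change of each lotr-1 allele over the wild-type mean (vertical, prior count 2) at the 52 tested lincRNA loci, ordered by the log2 fold change over the 3 alleles. Symbols are single libraries, grey lines join the alleles of a locus and dotted lines mark a 2-fold change. The alleles lie on the same side of the wild-type mean at 40 of the 52 loci. The widest gap is at Y48C3A.1, from −0.34 in xf58 to −5.82 in xf61.

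The spread between libraries was wider among the mutants. The coefficient of variation had a median of 24.8% over the 3 mutant libraries and of 8.40% over the 3 wild-type libraries, and it was larger in the mutants at 46 of the 52 loci. It was not computed over all tested loci, so whether the wider spread is particular to lincRNA loci was not tested. The mutant libraries are 3 different alleles and the wild-type libraries are replicates of one strain, so a difference between alleles and a more variable mutant cannot be told apart.

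The 29 untested loci had few counts. With every locus that had a count included, 2 of the 29 were called, both up-regulated, and both are named after their values were seen. In that fit 12% of all loci were up-regulated and 11.5% down-regulated, so calls were no more frequent among the 29. Linc-93 had 19, 6 and 9 raw counts in xf58, xf60 and xf61, against 2, 1 and 0 in wild-type (adjusted p = 0.000664 without a count filter). Linc-66 had 6, 12 and 19 raw counts in the alleles, against 8, 8 and 7 in wild-type, so its raw counts overlapped and its call (log2 fold change 1.46, adjusted p = 0.0225) rested on the scaling. For the other 27 a difference was not detectable at this depth.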

How the data were processed

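Whole-animal small RNA libraries of 3 lotr-1 alleles and 3 wild-type replicates were analysed. Reads were trimmed by the authors (cutadapt 2.4) and mapped to WBcel235 (Bowtie 1.2.2). A read with several best locations was put at a random one, so loci of like sequence can exchange reads. They assigned 22G-RNAs antisense to exons with featureCounts 1.6.2 and Ensembl genes, and deposited raw counts per locus, with no normalization. Biotypes, positions and exons came from a later Ensembl release of the same build, which lacks 171 of the gene IDs in the files. Sequences of the loci are not analysed here.

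Groups came from the sample labels. Counts were filtered with filterByExpr (minimum 10), scaled by TMM and compared with edgeR 4.0.16 (quasi-likelihood test, R 4.3.3) over all tested loci, with Benjamini-Hochberg adjustment. SE is the log2 fold change divided by the root of F. The code was tested on simulated data. Alternatives were DESeq2 1.42.0, other scalings, filters and cutoffs, a replicate block by assigned number and leaving out each library. Named loci were the called ones, the 8 highest in wild-type and those at the edge of the detection criterion. Those marked as ERGO-1 or NRDE-3 targets in the examined part of the study's gene table were also named. The loci, rules and lists were chosen with earlier results of these data known. Whether wild-type replicates were separate cultures is not given in the labels, so p-values measure the spread between these libraries. The floor of 3 counts covers counting error only.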

Additional observations from a re-analysis of the deposited data

How the results depend on the processing

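Scaling moved the typical locus. With total counts, which lowered the median over all tested loci to −0.88, against 0.01 with TMM, 5 lincRNA loci were up-regulated and 20 down-regulated, and their median log2 fold change was −0.58; over all tested loci 16.3% of calls were then up-regulated, against 51.7% with TMM. Of the 11 up-regulated loci 5 kept the call; a down-regulated locus can hardly lose it under that shift. Linc-29 (−0.23), linc-22 (−0.84), linc-7 (−0.82) and linc-63 (−0.33) changed sign. Relative to all counts the lincRNA share differed by −1.14 percentage points, per effective library size by 0.659, and without linc-29 and linc-22 by −0.498 of all counts; the last 2 were added after seeing the data. Edge calls moved with the cutoff. A test against a 2-fold change called 6 up- and 8 down-regulated loci, with 12.4% up and 9.15% down over all tested loci. With no cutoff on the fold change 23 loci were up- and 13 down-regulated, and the share over all tested loci was not computed for that cutoff. Without a count filter linc-22 (−0.0771) and linc-7 (−0.0774) changed sign, and linc-11 (0.96), linc-9 (0.91) and lep-5 (adjusted p = 0.143) lost the call. Leaving out loci with same-strand exon overlaps, added after seeing the data, left 10 up- and 10 down-regulated. DESeq2's Wald test called the same 22 loci.

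Leaving out each library in turn gave 9 to 13 up-regulated and 10 to 13 down-regulated loci and a median of 0.15 to 0.33, the lowest without xf61, and −0.0098 to 0.17 for linc-22. Over all tested loci 17.7% to 19.9% were then up-regulated and 15.3% to 22.4% down-regulated. Labels of the mutants name the allele and give no replicate number, so xf58, xf60 and xf61 were numbered in that order. Pairs made by this numbering are thus not part of the design. Samples with the same number did not deviate together (correlations of 0.0083, 0.034 and −0.034), and xf58 and xf61 correlated best with another number. With the replicate block 11 loci were up-regulated and 12 down-regulated, with a median of 0.31. Over all tested loci 18.2% were up-regulated and 18.6% down-regulated in that fit. Over the named tested loci 355 of the alternatives kept direction and call, 27 lost the call, 2 gained it and 7 changed sign. Loci under about 10 counts per library could not be tested, and 1 library per allele leaves allele differences without a replicate.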
